A study of Macaca mulatta with 6 samples.

Results

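Langerhans and dendritic cell genes were examined as a set of 10 named genes, CD207, CD1B, CD1C, BATF3, LAMP3, IRF4, ZBTB46, CLEC10A, CCR7 and TCF4. They were found by gene symbol among the 32386 rows of a count table made from 6 blood cell colonies of rhesus macaque. All 10 were present, each on 1 row. The colonies carried a TET2+/- genotype (TET2 uniallelic, UA, 3 colonies) or a wild type one (WT, 3 colonies). The samples of both groups came from bone marrow CD34+ cells taken 15 months after autologous transplantation of CD34+ cells treated with CRISPR/Cas9, so both share that treatment. By the labels, each was a granulocyte-macrophage colony grown from 1 CD34+ cell for 14 days in semi-solid medium. It was then split for DNA genotyping and RNA. A colony labelled so is 1 clone. The mutations were predicted and not shown to cause loss of function, and the number of animals behind the colonies is not in the labels. The p-values therefore measure only the spread among these 6 libraries, some or all of which may be technical.

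Dendritic cells take up antigen, carry it to lymph nodes and present it to T cells. Conventional type 1 cells depend on the transcription factor BATF3, type 2 cells on IRF4, and plasmacytoid cells, which make interferon, on TCF4, while ZBTB46 marks the conventional lineage. Langerhans cells are the dendritic cells of the epidermis, recognised by langerin, the product of CD207, and by CD1 molecules, which present lipids in place of peptides. On maturation, dendritic cells acquire CCR7, which guides them to lymph nodes, and the lysosomal protein LAMP3.

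Total counts were 6334264 to 17684447 in the UA libraries and 10574104 to 25485143 in the WT libraries. Levels are given as CPM, counts scaled by library total and by a composition factor (TMM), and 1 count was worth 0.0542 to 0.148 CPM in UA and 0.0457 to 0.0956 CPM in WT. TET2, the targeted gene, stood at 231 ± 6.65 CPM in UA and 93.8 ± 14.9 CPM in WT (SD, n = 3 each), and total counts of the gene do not show which allele was read. Between pairs of UA libraries the median gene differed by 0.151 to 0.161 on the log2 scale, against 0.224 to 0.464 between pairs of WT libraries. A chi-square over genes was 4.34 to 5.38 per degree of freedom between UA libraries and 12.7 to 91 between WT libraries, where counting noise alone gives about 1. Whether the close UA libraries share an RNA source was not tested, so a fit with the 3 UA libraries summed to 1 sample was run beside the other. Of 13768 genes tested with edgeR, 66% passed an adjusted p under 0.05, with 34.6% higher and 31.4% lower in UA.

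Of the 10 genes, 6 fell, 2 rose and 2 did not pass the test in UA against WT (edgeR adjusted p under 0.05). CD207, CD1B, LAMP3 and BATF3 each fell by more than 4 on the log2 scale, CLEC10A and ZBTB46 fell by less, IRF4 and TCF4 rose, and CD1C and CCR7 did not pass. Called falls beyond 3 on the log2 scale were made for 1.49% of all genes tested, against 4 of these 10. CD207 met the filter on low counts through the WT libraries alone, so the counts of 6 and 4 partly follow from the filter. The cut of 3 also lies in a gap of the members' own values, between -1.76 for CLEC10A and -4.50 for BATF3. The median log2 fold change of the 10 was -1.61, beside 0.12 over all genes tested. The 10 were chosen with earlier results of these data known, so these counts describe them and support nothing further. The groups did not overlap for 8 of the 10, with UA below for 6 and above for 2. Over all genes tested the groups did not overlap for 73.2%, with UA below for 34% and above for 39.2%. In colonies of mixed cells, fewer cells of a type and less RNA per cell cannot be told apart.

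**Figure D1:**
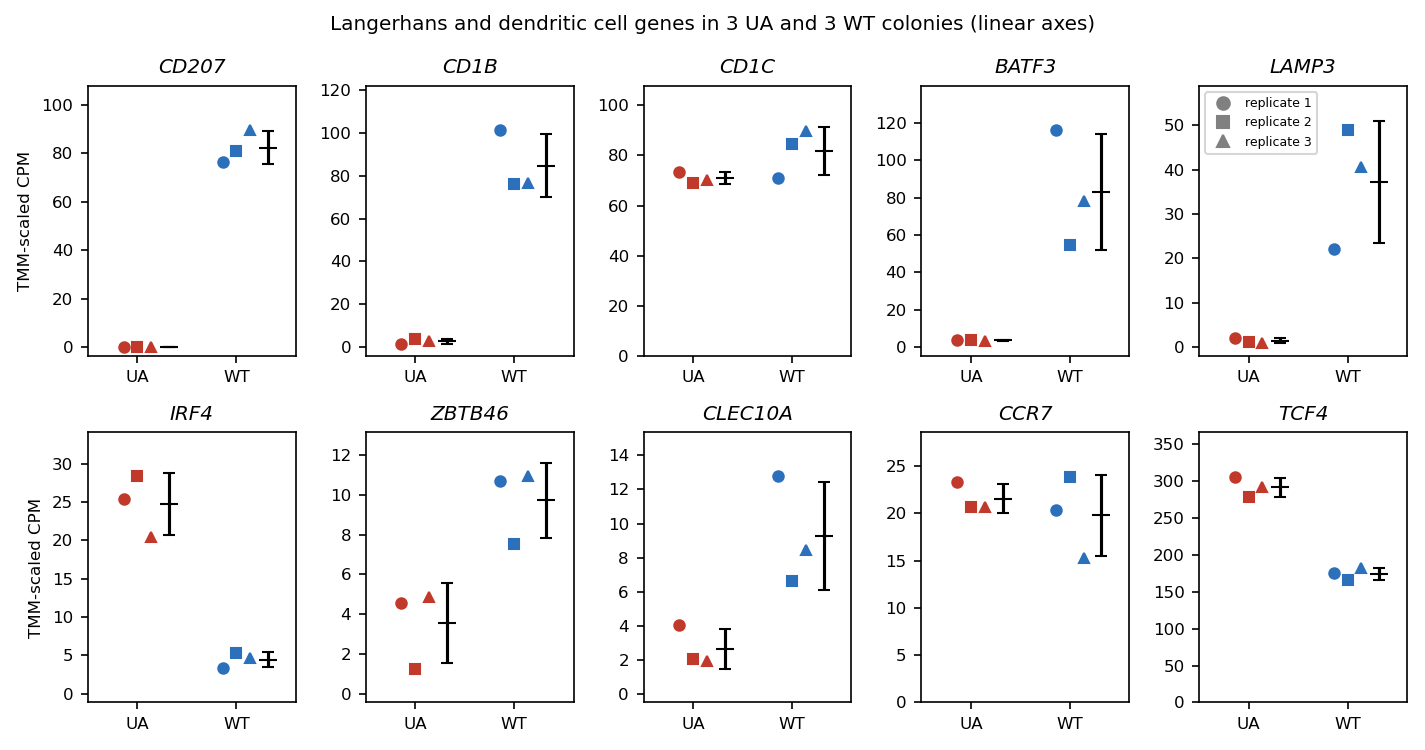
Each panel plots 1 gene in TMM-scaled CPM on a linear axis, with 3 UA libraries (red) left of 3 WT libraries (blue), symbols marking the replicate and bars the mean and SD. CD207, CD1B, BATF3 and LAMP3 lie near the bottom of the axis in all 3 UA libraries, IRF4 and TCF4 are higher there, and the groups overlap for CD1C and CCR7.

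CD207 encodes langerin, the C-type lectin that forms Birbeck granules in Langerhans cells. The authors' deposited table places it on chromosome 13, at 71936081 to 71941635. No build is given there, and Mmul_8.0.1 is the one in the submitters' processing notes. Its counts were 3, 0 and 0 in UA replicates 1 to 3, against 1674, 845 and 1067 in WT replicates 1 to 3. In CPM it had 0.163, 0 and 0 in UA, against 76.5, 80.8 and 89.9 in WT. The WT libraries were all high and close together, while a count of 0 in UA replicates 2 and 3 allows up to 0.288 and 0.443 CPM (3 counts, counting error only). On summed counts the WT level was 963 times the UA level, with a 95% exact counting interval of 329 to 4670 (edgeR adjusted p = 5.47e-08). The fitted log2 fold change of -9.80 was the lowest of the 13768 genes tested, and its size depends on the prior count because UA held 3 counts. CD207 passed the filter on low counts only through the WT libraries.

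CD1B presents mycobacterial and other lipids to T cells. It had 1.63, 3.75 and 2.95 CPM in UA replicates 1 to 3, against 102, 76.1 and 76.5 CPM in WT replicates 1 to 3. Every UA library was far below every WT library. The mean was 2.78 ± 1.07 CPM in UA and 84.7 ± 14.5 CPM in WT (SD, n = 3 each). The fitted change was -4.99 on the log2 scale (SE 0.31, edgeR adjusted p = 5.54e-07).

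CD1C, a second lipid-presenting molecule and the marker used to sort type 2 dendritic cells, did not follow CD1B. It had 73.6, 68.9 and 70.2 CPM in UA, against 71.1, 84.6 and 89.8 CPM in WT. The groups overlapped, since WT replicate 1 lay among the UA libraries. The log2 fold change was -0.21 with a 95% interval of -0.56 to 0.15 (edgeR adjusted p = 0.279). Without WT replicate 1 it was -0.29 and passed (edgeR adjusted p = 0.0274).

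In the RefSeq gene order of assembly T2T-MMU8v2.0, CD1B lies between CD1E and a gene without a name, beyond which come CD1C, CD1A and CD1D in that order. No row of the count table was found under the symbol CD1A, so CD1A was not examined. CD1D, which presents lipids to natural killer T cells, rose, with 50.7 ± 2.87 CPM in UA and 18.2 ± 5.34 CPM in WT (SD, n = 3 each; a change of 1.48 on the log2 scale, SE 0.23, edgeR adjusted p = 0.000212). CD1E, which loads lipids inside the cell and is named here after its values were seen, had 9 counts over UA and 91 over WT, too few to pass the filter. Its CPM were 0.488, 0 and 0 in UA, against 0.959, 2.96 and 3.28 in WT. The CD1 genes are related in sequence and the treatment of shared reads in the counting is not stated in the sources used here, so each value carries that uncertainty.

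**Figure D2:**
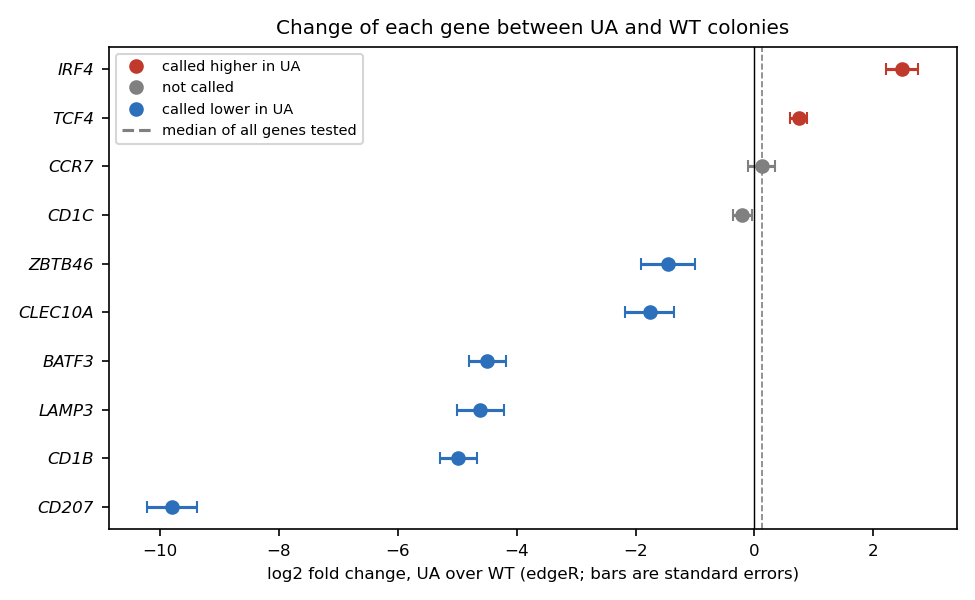
The log2 fold change of UA over WT is plotted for each of the 10 genes with its standard error, red where called higher, blue where called lower and grey where not called. The values run from 2.49 for IRF4 to -9.80 for CD207, and the dashed line is the median of all genes tested, 0.12.

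BATF3 is a small basic leucine zipper factor that the type 1 dendritic cell lineage requires. In the authors' deposited table BATF3 spans 153825071 to 153840048 on chromosome 1. It had 3.85, 3.94 and 3.10 CPM in UA, against 116, 54.6 and 78 CPM in WT. The UA libraries were uniformly low, and WT replicate 1 held 1.76 times the mean of the other WT libraries. BATF3 fell by 4.50 on the log2 scale (SE 0.31, edgeR adjusted p = 1.09e-06), with a mean of 3.63 ± 0.461 CPM in UA and 83 ± 31.2 CPM in WT (SD, n = 3 each). BATF, a related factor that can stand in for BATF3 in mouse dendritic cells, fell as well, to 6.73 ± 2.57 CPM in UA against 82.3 ± 19.4 CPM in WT (a change of -3.58 on the log2 scale with an edgeR adjusted p of 3.24e-06).

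IRF4, an interferon regulatory factor of type 2 dendritic cells and also of B cells and plasma cells, moved the other way. Its place in the authors' deposited table is chromosome 4, 250965 to 269138. It had 25.4, 28.4 and 20.4 CPM in UA, against 3.38, 5.36 and 4.63 CPM in WT. All UA libraries exceeded all WT libraries. The mean was 24.7 ± 4.03 CPM in UA and 4.46 ± 0.999 CPM in WT (SD, n = 3 each). The fitted change was 2.49 on the log2 scale (SE 0.27, edgeR adjusted p = 1.83e-05).

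TCF4, the E protein that plasmacytoid dendritic cells need and that B cells and stromal cells also express, rose by less. In the authors' deposited table TCF4 spans 44661729 to 45106134 on chromosome 18. It had 305, 279 and 292 CPM in UA, against 175, 166 and 182 CPM in WT, with little spread in either group. On the log2 scale the fitted change was 0.74 (SE 0.14, edgeR adjusted p = 0.000604). With the UA libraries summed to 1 sample it was 0.77 and did not pass (edgeR adjusted p = 0.0734).

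ZBTB46, a zinc finger repressor of the conventional dendritic lineage that endothelial cells also express, fell. Its place in the authors' deposited table is chromosome 10, 505277 to 555303. It had 4.55, 1.25 and 4.87 CPM in UA, against 10.7, 7.55 and 11 CPM in WT. UA replicate 2 was the lowest library and rested on 13 counts, and the groups did not overlap. On the log2 scale the fitted change was -1.46 (SE 0.45, edgeR adjusted p = 0.0144), and with the UA libraries summed it was -1.40 and did not pass (edgeR adjusted p = 0.0763).

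CLEC10A, a galactose-binding lectin of type 2 dendritic cells and some macrophages, also fell. It had 4.01, 2.02 and 1.92 CPM in UA, against 12.8, 6.60 and 8.42 CPM in WT. In both groups replicate 1 was the highest, and the highest UA library lay below the lowest WT library. On the log2 scale the fitted change was -1.76 (SE 0.41, edgeR adjusted p = 0.00296), and with the UA libraries summed it did not pass, at -1.60 (edgeR adjusted p = 0.0562).

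LAMP3, the lysosomal membrane protein of mature dendritic cells, fell. In the authors' deposited table LAMP3 spans 109904674 to 109949608 on chromosome 2. It had 2.06, 1.15 and 1.03 CPM in UA, against 22.1, 49.1 and 40.5 CPM in WT. The UA libraries were low throughout, and WT replicate 1, which held the most BATF3 of the WT libraries, held the least LAMP3, 0.493 times the mean of the others. The mean was 1.42 ± 0.561 CPM in UA and 37.2 ± 13.8 CPM in WT (SD, n = 3 each). The fitted change was -4.61 on the log2 scale (SE 0.40, edgeR adjusted p = 3.73e-06).

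CCR7, the chemokine receptor that brings mature dendritic cells and naive T cells to lymph nodes, did not pass the test. Its place in the authors' deposited table is chromosome 16, 46379596 to 46390576. It had 23.3, 20.7 and 20.7 CPM in UA, against 20.4, 23.8 and 15.2 CPM in WT. The UA libraries lay within the range of the WT libraries. The log2 fold change was 0.12 with a 95% interval of -0.38 to 0.63 (edgeR adjusted p = 0.645), and without WT replicate 3 its sign turned, to -0.04.

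Ratios of one gene to another within a library do not depend on how libraries are scaled, and 5 pairs were compared after their values were seen. The log2 ratio of CD1B to CD1C counts was -4.76 ± 0.669 in the UA libraries and 0.04 ± 0.408 in the WT libraries (SD, n = 3 each). The log2 ratio of LAMP3 to CCR7 was -4.00 ± 0.436 in UA and 0.86 ± 0.667 in WT. BATF3 against IRF8, the factor that works with it in type 1 dendritic cells, gave -6.54 ± 0.163 in UA and 0.05 ± 0.713 in WT. For these 3 pairs no UA library overlapped a WT library, which gives the smallest p that an exact two-sided permutation test of 3 against 3 allows, 0.1 (0.167 adjusted over the 5 pairs). As the pairs were chosen on their values, these p-values describe the separation and support nothing further. A further pair, CD207 over CD1C, was left out of the 5. With CD207 at 0 counts in UA replicates 2 and 3, its log2 ratio has no value there.

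The remaining pairs differed less. The log2 ratio of IRF4 to IRF8 was -3.78 ± 0.224 in UA and -4.12 ± 0.17 in WT, and that of BATF3 to BATF was -0.81 ± 0.445 in the UA libraries and -0.03 ± 0.376 in the WT libraries (SD, n = 3 each). Both groups overlapped for each pair (exact permutation p = 0.2, also after adjustment over the 5 pairs). The UA mean minus the WT mean was 0.35 for IRF4 over IRF8 and -0.78 for BATF3 over BATF, so neither pair was shown to change by unequal amounts or by equal ones.

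**Figure D3:**
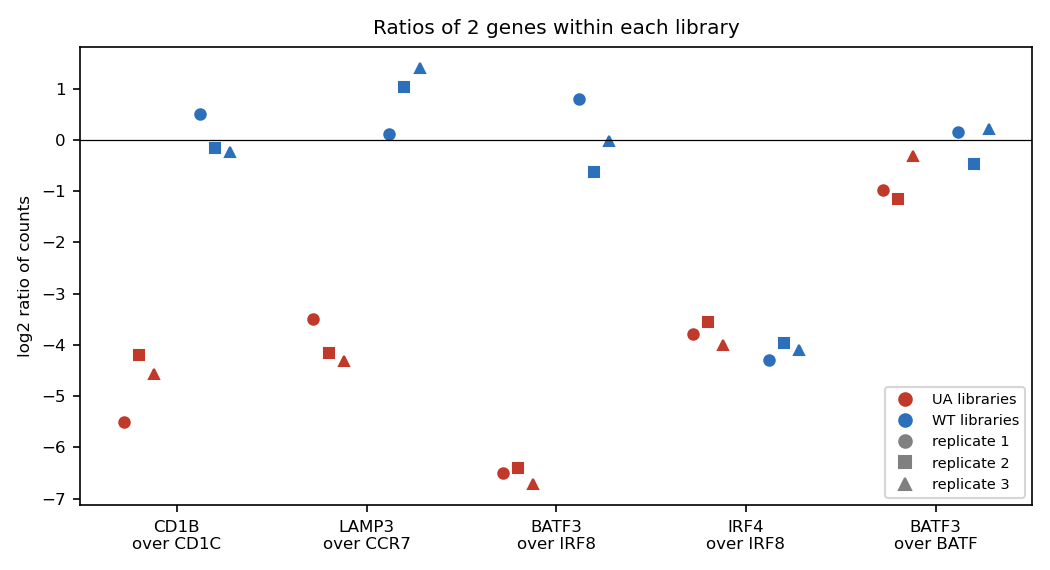
The log2 ratio of the counts of 2 genes is plotted for each library, with UA (red) left of WT (blue) in each pair and symbols marking the replicate. For CD1B over CD1C, LAMP3 over CCR7 and BATF3 over IRF8 the groups do not overlap, and their means differ by more than 4 on the log2 scale. The groups overlap for IRF4 over IRF8 and BATF3 over BATF.

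Beyond the 10 genes, lists of dendritic cell genes held 119 others, of which 87 could be tested. Of these, 48 rose, 27 fell and 12 did not pass, and the median member stood at 0.81 on the log2 scale. That is 55.2% higher and 31% lower, beside 34.6% and 31.4% of all genes tested. Of the 87, 9 met the filter on low counts in all UA libraries but not in all WT libraries, and 8 of these were among the risers. Likewise 5 met it in WT alone, and 4 of these were among those that fell, so the counts partly follow from the filter. The lists below include the 10 genes where they belong, and their counts are to be read against the same shares of all genes.

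Type 1 dendritic cell genes were higher for 7 of 11 tested members and lower for 3, and the median member stood at 1.43 on the log2 scale. IRF8, the factor that sets the fate of monocytes and type 1 dendritic cells, had 336 ± 10.9 CPM in UA and 76.7 ± 8.83 CPM in WT (SD, n = 3 each; a change of 2.13 on the log2 scale, edgeR adjusted p = 1.17e-06). TLR3, the receptor for double-stranded RNA, had the largest rise, 4.12 on the log2 scale, to 5.13 ± 1.8 CPM in UA against 0.279 ± 0.167 CPM in WT. It and 1 other member that rose met the filter on low counts through the UA libraries alone. WDFY4, needed for cross-presentation, rose by a log2 fold change of 1.82, NFIL3, a factor upstream of this lineage, by 2.07, THBD, thrombomodulin, by 1.43 and CPVL, a carboxypeptidase, by 0.69. The genes that fell were BATF3, CLNK, an adaptor of immune receptors, at -2.63, and IDO1, which breaks down tryptophan, at -3.61. XCR1 and CLEC9A, the receptors that define type 1 cells and were named after their values were seen, had 15 and 19 counts over all UA libraries and 3 and 8 over all WT libraries, too few for a test.

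Type 2 dendritic cell genes were higher for 7 of 12 tested members and lower for 3, and the median member stood at 0.96 on the log2 scale. FCER1A, the high-affinity IgE receptor chain of these cells, mast cells and basophils, had 53.1 ± 7.62 CPM in UA and 9.80 ± 2.24 CPM in WT (SD, n = 3 each; a change of 2.43 on the log2 scale, edgeR adjusted p = 8.28e-06). CLEC12A, an inhibitory lectin, rose by 2.80 on the log2 scale, NOTCH2, a receptor that type 2 cells of the mouse spleen need, by 2.35, KLF4, a transcription factor, by 3.83, and PRDM1, a repressor, by 1.24. CLEC4A, the inhibitory lectin DCIR, fell to 7.51 ± 2.18 CPM in UA against 97.9 ± 22.2 CPM in WT (a change of -3.69 on the log2 scale with an edgeR adjusted p of 1.3e-06). RELB, an NF-kB subunit, with a log2 fold change of -2.50, and CLEC10A fell too. Without WT replicate 1, 5 members of the list were called lower.

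Plasmacytoid dendritic cell genes rose in 7 of 10 tested members, and the other 3 did not pass, and the median member stood at 2.05 on the log2 scale. CLEC4C, PACSIN1 and PTCRA met the filter on low counts through the UA libraries alone, where they are high, and TLR7 through the WT libraries alone, so the count of 7 partly follows from the filter. CLEC4C, the lectin BDCA-2 that defines these cells, had 68, 24 and 16 counts in UA, against 1, 0 and 0 in WT. On summed counts its UA level was 134 times the WT level, with a 95% exact counting interval of 23.6 to 5340 (edgeR adjusted p = 0.000114). PACSIN1, a membrane-shaping adaptor, rose by a log2 fold change of 3.22. ZEB2, a transcription factor required by these cells and by monocytes, rose by a log2 fold change of 2.43, RUNX2 by 2.37, NRP1, the surface protein BDCA-4, by 2.24 and PLD4, a lysosomal nuclease, by 1.85. TCF3, an E protein like TCF4, and ID3, an inhibitor of E proteins, rose together, by 2.13 and 4.23 on the log2 scale (edgeR adjusted p of 7.62e-06 and 1.43e-06).

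**Figure D4:**
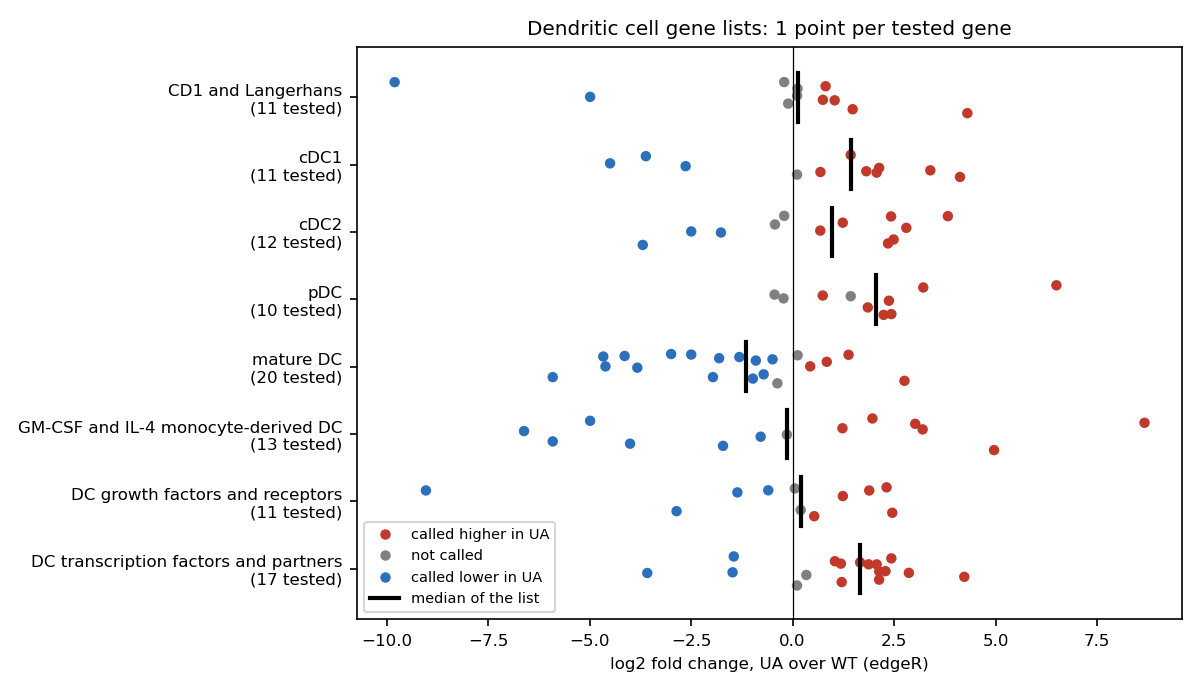
Each point is 1 tested gene of a list of dendritic cell genes, placed by its log2 fold change of UA over WT and coloured red where called higher, blue where called lower and grey where not called, with a bar at the list's median. The medians run from -1.14 for maturation genes to 2.05 for plasmacytoid genes, and all lists but the plasmacytoid one hold genes called in both directions.

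Maturation and migration genes fell in 14 of 20 tested members and rose in 4, and the median member stood at -1.14 on the log2 scale. CD40, which receives T cell help, had 10.1 ± 2.64 CPM in UA and 179 ± 49.7 CPM in WT (SD, n = 3 each; a change of -4.14 on the log2 scale, edgeR adjusted p = 7.54e-07). EBI3, a subunit of interleukins 27 and 35, fell by 4.66 on the log2 scale, while TRAF1 and NFKB2, of NF-kB signalling, had log2 fold changes of -3.82 and -2.99. CCL22, a chemokine of mature dendritic cells, had 1 count over UA and 93 over WT, a ratio of WT to UA of 74.9 (95% exact counting interval 13.1 to 2990). It met the filter on low counts through WT alone, so the count of 14 partly follows from the filter. PDCD1LG2, the ligand PD-L2, rose by 2.76 on the log2 scale, with 26, 31 and 6 counts in UA against 1, 3 and 6 in WT, and met the filter on low counts through UA alone. Without UA replicate 2 it did not pass (2.13, edgeR adjusted p = 0.116). BIRC3, an apoptosis inhibitor, rose by 1.38 and CFLAR, a caspase regulator, by 0.84. CD83, a maturation marker, was higher by 0.43 (edgeR adjusted p = 0.0128), a call lost with the UA libraries summed (0.45, edgeR adjusted p = 0.316). The call for CD83 was also lost without UA replicate 1 (0.44, edgeR adjusted p = 0.0624) and without UA replicate 3 (0.41, edgeR adjusted p = 0.0684). With the UA libraries summed, 1 member of the list was called higher.

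Genes of dendritic cells grown from monocytes with GM-CSF and IL-4 were divided, with 6 of 13 tested members higher and 6 lower, and the median member stood at -0.14 on the log2 scale. CD209, the lectin DC-SIGN, had 0 counts in all WT libraries and 56, 42 and 30 in UA replicates 1 to 3, at least 53-fold higher taking 3 counts over all WT libraries as the floor. FABP4, a fatty acid carrier, rose by 4.96 on the log2 scale ALOX15, a lipoxygenase, by 3.20, FCER2, the low-affinity IgE receptor CD23, by 3.02, TGM2, a transglutaminase, by 1.97 and PPARG, a nuclear receptor, by 1.23. CD209 and FCER2 met the filter on low counts through UA alone, and CCL22, CCL18 and IL4I1 through WT alone. CCL18, a chemokine of alternatively activated macrophages and dendritic cells, fell to 0.828 ± 0.554 CPM in UA against 14.9 ± 4.64 CPM in WT (SD, n = 3 each), and IL4I1, an amino acid oxidase, fell by 6.61 on the log2 scale. MAOA, a monoamine oxidase, fell by 1.71 and FCGR2B, the inhibitory IgG receptor, by 0.79.

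Growth factor genes and their receptors were higher for 5 of 11 tested members and lower for 4, and the median member stood at 0.20 on the log2 scale. FLT3, the receptor through which dendritic progenitors expand, had 267 ± 10.4 CPM in UA and 53.7 ± 13.4 CPM in WT (SD, n = 3 each; a change of 2.32 on the log2 scale, edgeR adjusted p = 3.82e-06). JAK2, a kinase of the GM-CSF receptor, had the largest rise, 2.46 on the log2 scale, and STAT5B, STAT5A and CSF1, which encodes M-CSF, rose by 1.89, 0.53 and 1.24. CSF2, which encodes GM-CSF, had 4, 1 and 0 counts in UA, against 2152, 611 and 884 in WT (a change of -9.03 on the log2 scale, edgeR adjusted p = 1.06e-07). CSF2 met the filter on low counts through the WT libraries alone, where it is high, so the count of 4 partly follows from the filter. IL2RG, the common gamma chain of the receptors for IL-4 and related cytokines, fell by 2.86 on the log2 scale, IL4R by 1.36 and STAT3 by 0.60. The call of STAT5A was lost without UA replicate 1 or 3 (edgeR adjusted p of 0.0504 and 0.0712), and that of STAT3 with library size alone (edgeR adjusted p = 0.0556). Among transcription factors and partners of dendritic cells, 12 of 17 tested members rose and 3 fell, and the median member stood at 1.66 on the log2 scale. BCL6, a repressor, rose by 2.87 and CEBPA, a myeloid factor, by 2.29, while CEBPB, a related factor, fell by 1.45. SPI1, the factor PU.1 with which IRF4 and IRF8 bind DNA, fell, to 62.6 ± 4.75 CPM in UA against 174 ± 19.7 CPM in WT (a change of -1.48 on the log2 scale with an edgeR adjusted p of 1.52e-05).

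Langerhans cells develop under TGF-beta, and the CD1 and Langerhans genes were higher for 5 of 11 tested members and lower for 2, CD207 and CD1B (median log2 fold change 0.12). TGFB1 had 166 ± 5.44 CPM in UA and 80.8 ± 2.56 CPM in WT (SD, n = 3 each; a change of 1.04 on the log2 scale, edgeR adjusted p = 7.86e-05). AXL, a receptor kinase of Langerhans cells and macrophages, rose (log2 fold change 4.31) and met the filter on low counts through UA alone, as CD207 did through WT. The TGF-beta receptor genes TGFBR1 and TGFBR2 rose by 0.75 and 0.81. The calls were lost without UA replicate 2 for both, without WT replicate 3 for TGFBR1, and without UA replicate 1 or 3 for TGFBR2 (edgeR adjusted p of 0.0533 to 0.0984). With the UA libraries summed to 1 sample, 3 of this list were called higher, TGFBR1 and TGFBR2 not among them, and in the lists above CPVL, PDCD1LG2, CFLAR, FCER2, PPARG, FCGR2B, STAT5A, STAT3 and CEBPB did not pass either. For this list, without WT replicate 1 5 were called lower.

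By the Euclidean distance of centred log2 CPM over the 6 libraries, the genes nearest to CD207 were CSF2 (0.965), CCL2 (1.26) and CCL1 (1.30). CCL2, a chemokine that attracts monocytes, had 11.2 CPM in UA and 3400 CPM in WT on average, and CCL1, also a chemokine, 3.28 CPM in UA and 2151 CPM in WT. Nearest to CD1B were CCL7 (0.593), AKR1B10 (0.715) and GZMB (0.732), and nearest to BATF3 were PDLIM4 (0.371), GZMB (0.579) and LINC00116 (0.593). GZMB, granzyme B, which T, NK and plasmacytoid cells make, had 4.92 CPM in UA and 118 CPM in WT. LAMP3 was nearest to IL21R (0.973), ME1 (1.05) and TNFAIP6 (1.07), and IRF4 to STAM (0.166), RUNX2 (0.227) and CSTL1 (0.247). These distances follow mostly the difference between the groups and say nothing of shared control.

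Markers of other cells that express some of the 10 genes differed between the same libraries, and their part in the results above was not tested. Of 10 B cell markers, all tested, 9 rose and 1 did not pass, with a summed level of 903 to 922 CPM in UA and 74.9 to 78.4 CPM in WT. EBF1, a factor of early B cells, had 288 ± 4.15 CPM in UA and 1.90 ± 1.43 CPM in WT, and VPREB1, the surrogate light chain of precursor B cells, 274 ± 18 CPM in UA and 2.48 ± 1.01 CPM in WT (SD, n = 3 each). PAX5, a factor that defines the B lineage, had 440 counts over UA and 1 over WT. Of 9 endothelial markers 7 rose and 1 fell, with sums of 577 to 609 CPM in UA and 318 to 345 CPM in WT. EMCN, endomucin, had 627 counts over UA and 1 over WT. ESAM, the marker that fell, had 145.3 CPM in UA and 253.5 CPM in WT on average, most of the WT sum. Of 8 stromal markers 6 rose and 2 fell, with sums of 932 to 966 CPM in UA and 125 to 142 CPM in WT. COL1A2, a collagen chain of stromal cells, had 560 ± 11.9 CPM in UA and 0.942 ± 0.451 CPM in WT. The 2 stromal markers that fell were THY1 and DCN. DCN had 21.6 CPM in UA and 112.8 CPM in WT on average, most of the WT sum. Of the B cell, endothelial and stromal markers, 3, 4 and 5 met the filter on low counts through UA alone. Without UA replicate 3 the B cell marker that had not passed was called lower, and with the UA libraries summed no endothelial marker was called lower. The B cell, endothelial and stromal sums were thus higher in UA, as were those of most other cell types below. Their part in the changes of IRF4, TCF4 and ZBTB46 was not tested. No marker of these 3 lists had 0 counts over a whole group.

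T and NK cell markers, which bear on CCR7, had sums of 50.4 to 60.4 CPM in UA and 38 to 42.5 CPM in WT. Of 9 with a row, 3 could be tested, and 2 of them rose and 1 fell. Without UA replicate 1, without UA replicate 2 and with a replicate block 1 was called higher, and with the UA libraries summed the fall was not called. The changes on the log2 scale were 2.05 for NCAM1, 0.87 for CD3D and -0.87 for NKG7, of cytotoxic cells, and without WT replicate 3 CD3D did not pass (0.78, edgeR adjusted p = 0.0695). CD3G, a chain of the T cell receptor complex named after its values were seen, had 72, 55 and 5 counts in UA, against 2, 0 and 0 in WT, and did not pass the filter. On summed counts its UA level was 81.9 times the WT level, with a 95% exact counting interval of 22.2 to 684. CD3E, CD8A, CD5 and KLRD1 had 0 counts in all WT libraries and 7, 2, 3 and 1 counts over UA. Of 7 epithelial markers in the table, only KRT18 could be tested and it fell (log2 fold change -4.13, edgeR adjusted p = 4.96e-06), with sums of 1.18 to 2.79 CPM in UA and 13.4 to 17 CPM in WT. KRT18 met the filter on low counts through the WT libraries alone. KRT19 had 0 counts in all 6 libraries, and KRT5 and SFTPB had 4 and 2 counts over UA and 0 over WT.

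Monocyte and macrophage markers, which check the labelled colony type together with neutrophil ones, rose in 5 of 9 and fell in 2, with sums of 390 to 405 CPM in UA and 1210 to 1575 CPM in WT. CD14, the lipopolysaccharide co-receptor of monocytes, was lower in UA, at 18.4 to 24.1 CPM against 965 to 1410 CPM in WT, as CD207, CD1B and BATF3 were. It was the only marker of its list called lower with library size alone, with the UA libraries summed and without UA replicate 2 or 3. CD14 carries the difference of the sums, since the other 8 markers summed to 366 to 387 CPM in UA and 165 to 245 CPM in WT. C1QC, a complement chain of macrophages, rose by 4.77 on the log2 scale. Of the 9 markers, 3 met the filter on low counts through UA alone, and 2 of these were among the 5 that rose. Neutrophil markers rose in 6 of 7, with sums of 24370 to 25210 CPM in UA and 1207 to 1322 CPM in WT, and MPO, myeloperoxidase, had 16740 ± 147 CPM in UA and 810 ± 114 CPM in WT. Of the 6 that rose, 1 met the filter on low counts through UA alone. Megakaryocyte markers were higher for 4 of 7 and lower for 1, with sums of 819 to 838 CPM in UA and 422 to 472 CPM in WT. Of the 7, 4 met the filter on low counts through UA alone, and 3 of these were among those called higher. TUBB1, the marker called lower, had 203.3 CPM in UA and 440.1 CPM in WT on average, most of the WT sum. Eosinophil, mast cell and basophil markers, some of which share FCER1A, rose in 4 of 5, with sums of 1427 to 1541 CPM in UA and 93.2 to 100 CPM in WT. PPBP, a platelet chemokine, had 258 ± 5.16 CPM in UA and 0.614 ± 0.416 CPM in WT, and EPX, eosinophil peroxidase, 877 ± 35.1 CPM in UA and 2.90 ± 1.25 CPM in WT (SD, n = 3 each). Granulocyte and macrophage markers were thus present in all libraries. The B cell, stromal and megakaryocyte markers in UA go against the label of a granulocyte-macrophage colony grown from 1 cell. WT libraries held such markers too, with DCN at 112.8 CPM and TUBB1 at 440.1 CPM on average. Both of these were above UA, though most markers of these lists were higher in UA. The part of this in the differences between UA and WT was not tested.

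**Figure D5:**
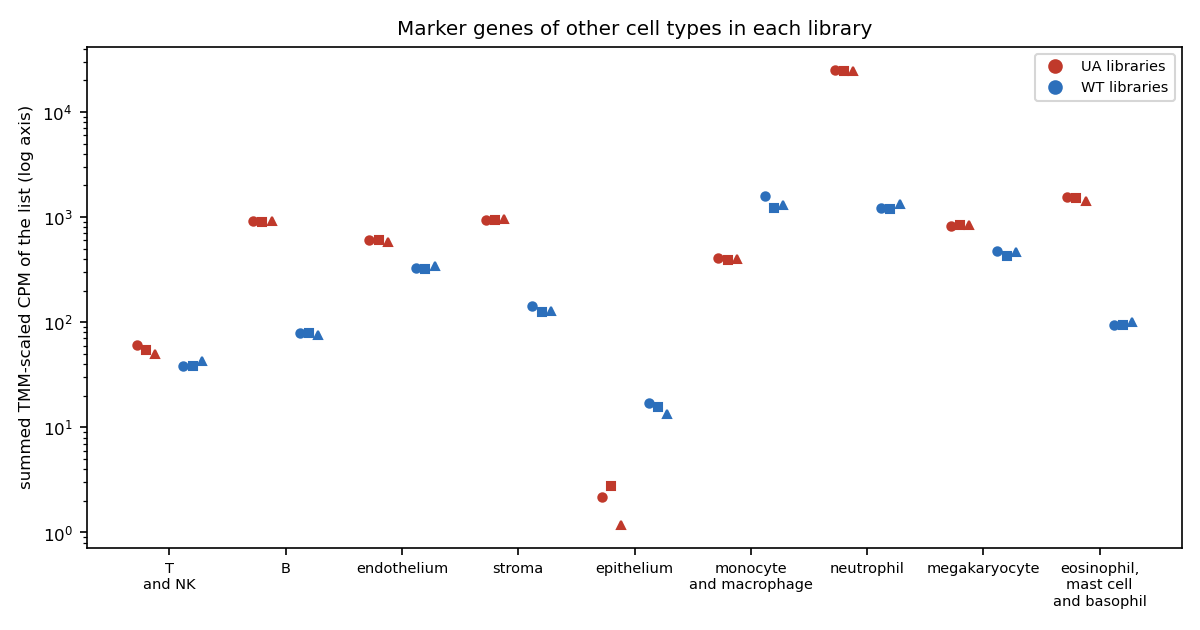
The summed TMM-scaled CPM of each list of markers of other cell types is plotted on a log axis for the 3 UA libraries (red, left) and the 3 WT libraries (blue, right). UA sums exceed WT sums for all lists except the epithelial list and the monocyte and macrophage list, which without CD14 is also higher in UA, with the neutrophil sum at 24370 to 25210 CPM in UA against 1207 to 1322 CPM in WT.

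The authors' deposited table of differential expression lists 7 of the 10 genes, without CD1B, CD1C and CLEC10A, and the libraries it compares are not named in the sources used here. Which group is on top of its ratio is not stated either. The log2 fold change in the authors' deposited table is -1.25 for CD207, -3.67 for LAMP3, -5.28 for ZBTB46 and -4.97 for CCR7. In the authors' deposited table it is -1.14 for IRF4, 0.95 for TCF4 and 3.28 for BATF3. Read as UA over WT, CD207, LAMP3, ZBTB46 and TCF4 have the sign found here, and read as WT over UA, BATF3 and IRF4 do. CCR7 would also match as WT over UA, but it was not called here (log2 fold change 0.12), so its sign says little. The mean of normalized counts in the authors' deposited table is 33.7 for CD207, where these 6 libraries averaged 509 scaled counts. Of 9874 genes tested here and listed in the authors' deposited table, 35.5% have the same sign as UA over WT here and 64.5% the same sign as WT over UA, so neither reading brings all 7 genes into one direction.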

How the data were processed

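Libraries of 6 single colonies were made with the SMART-Seq V4 and Nextera XT kits, per the labels' protocols. These kits do not record strand or molecule identity, so reads of antisense or overlapping genes cannot be separated, and intervals on counts cover counting error only. The authors deposited raw counts per gene, whose columns match the labels by title. Mmul_8.0.1 and bcl2fastq appear in the submitters' processing notes, and for the aligner and the counter nothing is given in the sources used here. A second table deposited by the authors holds, going by its column names (per the file headers), mean normalized counts (signal), a log2 fold change and its error, a score as test statistic, and p-values. It served for coordinates and for the symbols of 9226 IDs, and a table of gene names gave 7223 more.

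The test was edgeR's quasi-likelihood F-test (version 4.0.16, R 4.3.3, robust), after filterByExpr (minimum count 10) and TMM scaling with factors of 0.86 to 1.07. Adjustment was by Benjamini-Hochberg over the 13768 genes tested, and standard errors are the change over the square root of F. The fit was run on simulated data in which few genes changed and the spread was the same in both groups. The data here differ in both respects, so that run does not show how the fit performs on them. Alternatives were other scalings, filters and tests (DESeq2 1.42.0, limma 3.58.1), a replicate block, summed UA libraries and leaving out each library. The 10 genes and all lists were chosen with earlier results of these data known, and 179 of 207 list genes had a row. From each dendritic cell list, up to 6 called genes in each direction with a mean of at least 1 CPM qualified for naming, by size of change. From lists of other cells up to 3 qualified, and the text gives some of them. No sequence was used here.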

Additional observations from a re-analysis of the deposited data

How the results depend on the processing

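The calls and directions of CD207, CD1B, BATF3, LAMP3 and IRF4 held under all 17 alternatives, with log2 fold changes of -13 to -9.35, -5.30 to -4.64, -4.73 to -4.16, -5.06 to -4.37 and 2.32 to 2.64. With the 3 UA libraries summed to 1 sample, 3014 genes were called higher and 2410 lower, and of the 10 genes 1 was called higher and 4 lower, as ZBTB46, CLEC10A and TCF4 no longer passed. All spread then comes from the WT libraries. No other alternative changed a call among the 10, except that CD1C passed without WT replicate 1. With each library left out in turn, the log2 fold change of CCR7 ran from -0.039 to 0.263, never called. It was negative without WT replicate 3, its lowest WT library (15.2 CPM), and highest without WT replicate 2, its highest (23.8 CPM). STRADB and PIGK ran likewise, from -0.071 to 0.235 and from -0.016 to 0.187. Both were picked as nearest to CCR7 over these same 6 libraries, so their shared pattern follows from that choice. What sets the WT replicates apart was not tested. The median log2 fold change of all genes, 0.12, was 0.28 with library size alone and 0.26 with the UA libraries summed. It was 0.91 with no low-count filter and 0.03 at 5 CPM in 3 libraries. With the DESeq2 test it was 0.92, taken over all genes with a fitted change, before that test's own filter on mean counts. Any pairing of the samples by replicate number was weak, with correlations of 0.0129 to 0.022 between same-numbered libraries, each the best match of its number. With a replicate block 4765 genes were called higher and 4174 lower, with the same 2 and 6 of the 10 genes. At the shallowest library, a count of 0 allows 0.443 CPM.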

Other observations

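The genes whose centred log2 CPM lay nearest to the members with smaller changes were also looked up, as a description. They were FAM50B, SNX12 and CHRNE for ZBTB46 (Euclidean distances of 0.689, 0.719 and 0.745 over 6 libraries) and METTL2A, FUNDC1 and TIMM17B for CLEC10A (0.468, 0.495 and 0.542). For CD1C they were ARMC8, POLD1 and RPIA (0.0997, 0.107 and 0.108), for CCR7 STRADB, UBE2G1 and PIGK (0.096, 0.151 and 0.161) and for TCF4 KIF16B, RBM23 and NRF1 (0.0825, 0.123 and 0.134).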
